A study of Mus musculus with 9 samples.

Results

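Dgcr8 KO mouse embryonic stem (ES) cells were compared with wild-type (WT) ES cells on 6 Affymetrix mouse gene 1.0 ST arrays, 3 per genotype, chosen by the sample titles out of the 9 arrays of the series. The WT line is v6.5, and the Dgcr8 KO cells carry a deletion of exon 3 of Dgcr8 that creates an early stop codon. Total RNA was hybridised, 1 labelled sample to an array, and the 3 arrays of Dicer KO cells were left out of every comparison given here. The records describe plating in triplicate and the methods describe biological replicates, so the p-values may measure only the spread between cultures of 1 line per genotype. No passage, day or plate is given that would tell a difference between the lines from an effect of the deletion, and those cannot be told apart. Each value is a log2 level of a transcript cluster, a group of probes placed along 1 gene or locus, and 22999 of the 35557 clusters of the table were counted because they name a gene that is neither only a miRNA, nor mitochondrial, nor on chromosome Y. In bulk RNA, fewer cells with a transcript and less of it in each cell cannot be told apart.

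Dgcr8 binds the hairpins of primary miRNA transcripts and positions the RNase Drosha, and the complex of these proteins is the Microprocessor. The hairpins it releases are cut by Dicer and loaded onto Argonaute proteins, where bases 2 to 8 of the miRNA, the seed, pair with target mRNAs. In mouse ES cells the most abundant miRNAs share the seed of the miR-290 family, and let-7 miRNAs rise when the cells differentiate. The sequences from RefSeq (GRCm38.p6) of some of the miRNAs that the gene groups described here refer to are shown with the seed in capitals, since the seed is what the groups of reported targets have in common.
miR-291a-3p, chr7:3218968-3218989, plus strand: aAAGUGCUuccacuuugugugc
miR-294-3p, chr7:3220691-3220712, plus strand: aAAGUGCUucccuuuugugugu
miR-295-3p, chr7:3220815-3220837, plus strand: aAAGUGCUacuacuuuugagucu
miR-17-5p, chr14:115043684-115043706, plus strand: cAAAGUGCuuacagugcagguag
let-7a-5p, chr13:48538239-48538260, minus strand: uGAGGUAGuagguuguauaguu
let-7g-5p, chr9:106178846-106178867, plus strand: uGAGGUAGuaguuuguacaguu
miR-27b-3p, chr13:63300760-63300780, plus strand: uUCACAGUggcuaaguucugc
miR-24-3p, chr13:63301251-63301272, plus strand: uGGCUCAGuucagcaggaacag
miR-92a-3p, chr14:115044476-115044496, plus strand: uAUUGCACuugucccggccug
The first 3 share 1 seed, and the seed of miR-17-5p holds their first 6 bases, shifted by 1 position. Both let-7 miRNAs share 1 seed.

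Dgcr8 itself was lower in the Dgcr8 KO cells, at 9.76, 9.81 and 9.82 on the log2 scale in WT and 8.74, 8.96 and 8.86 in Dgcr8 KO. The groups did not overlap, and the log2 ratio of Dgcr8 KO to WT was -0.94 (standard error 0.0678, limma adjusted p = 0.000107). Drosha did not pass the test (log2 ratio -0.15, adjusted p = 0.14). The markers of ES cells Pou5f1, Nanog, Sox2, Esrrb, Dppa5a and Tdgf1 were bright on every array, with Pou5f1 at 12.30 to 12.44 in WT and 12.51 to 12.63 in Dgcr8 KO. Of 27 measured markers of fibroblasts and feeder cells, 2 were called higher and 0 lower, and their summed log2 level was 158.5 to 162.9 on the WT arrays and 158.3 to 162.2 on the Dgcr8 KO arrays. Of 21 blood cell markers 2 were called higher and 3 lower, and of 19 endothelial markers 7 were called higher (36.8%) and 5 lower (26.3%). Among all transcripts counted, 13.9% were called higher and 14.8% lower. The endothelial rises included Tek (1.14), Kdr (1.14) and Pecam1 (1.03), the last of which ES cells express too. Cdh5, which defines endothelium, was at 5.34 to 5.60 over the 6 arrays and was not called (0.03, adjusted p = 0.821). Background was not given per array, so a low level cannot be called absent. Array medians lay between 6.52 and 6.56, and Pearson's r across transcripts, which are not independent replicates, was 0.996 to 0.998 within a genotype and 0.981 to 0.984 between genotypes. WT replicate 1 and Dgcr8 KO replicate 2 stood at the ends of the leading component of the spread within genotypes, which held 60.4% of it. Without both of these arrays 3229 transcripts were called higher and 3684 lower.

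Loss of Dgcr8 went with a broad, balanced change of the transcriptome in which the rises were larger than the falls. With all 6 arrays, limma called 3207 of the 22999 transcripts (13.9%) higher and 3409 (14.8%) lower in the Dgcr8 KO cells at a Benjamini-Hochberg adjusted p under 0.05, 28.8% in all. The share of higher ones among those called was 48.5%, against 42.1% when arrays were centred on their medians and 54.0% after cyclic loess. The median log2 ratio was 0.49 among the transcripts called higher and -0.40 among those called lower. Rises outnumbered falls more as the change grew, with 1267 against 814 at 1.5-fold or more, 493 against 166 at a log2 ratio of 1 or more, and 81 against 17 at 2 or more. Over all transcripts counted the median log2 ratio was -0.01, and it was -0.05 when arrays were centred on their medians. Dim transcripts were called less often than bright ones, with 2.5% called higher and 1.36% lower among the 5750 dimmest by mean level, and 20.9% and 29.1% among the 5750 brightest.

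**Figure D1:**
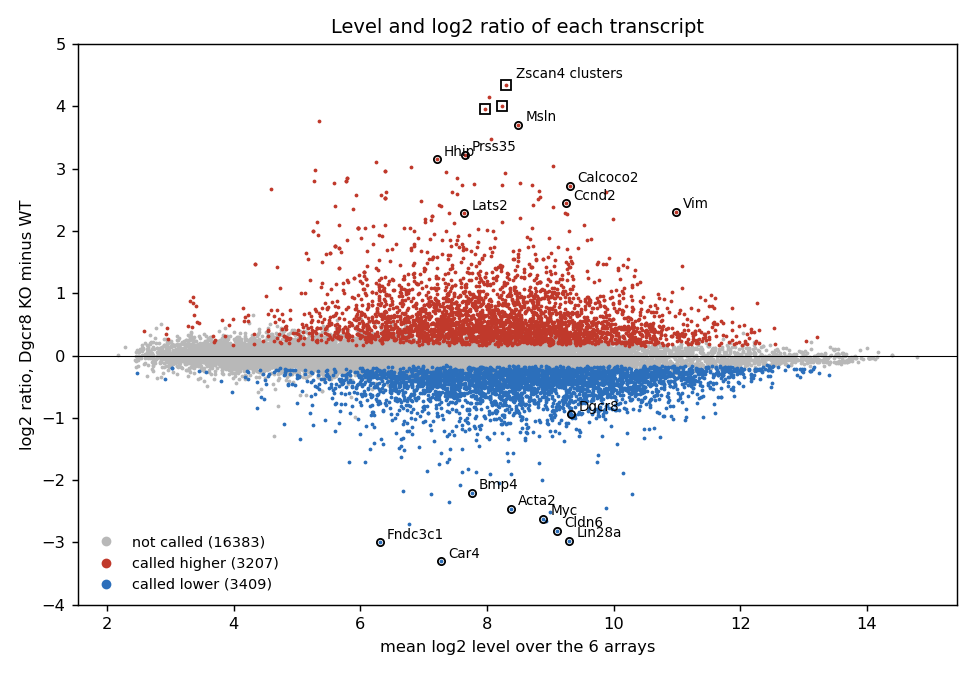
Mean log2 level over the 6 arrays (horizontal) against the log2 ratio of Dgcr8 KO to WT (vertical) for each of the 22999 transcripts, coloured by limma's call, with circles around named genes and squares around 3 clusters of Zscan4 genes. The largest rises reach log2 ratios above 4, and the largest fall is that of Car4 at -3.30.

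The largest rise was on a cluster of Zscan4 genes, which are expressed in the embryo at the 2-cell stage and in a small, changing share of ES cells, where Zscan4 acts on telomeres. The Zscan4 copies are so alike that the array measures them together, on clusters that name Zscan4a, Zscan4b, Zscan4c, Zscan4d and Zscan4f, and such clusters with several gene symbols were picked for description after their values were seen. The brightest of the 3 Zscan4 clusters was at 6.07, 6.20 and 6.11 in WT and at 10.36, 10.64 and 10.38 in Dgcr8 KO. Its log2 ratio of 4.33 (standard error 0.0875, adjusted p = 1.39e-06) is a 20.2-fold difference, and the other 2 Zscan4 clusters had log2 ratios of 4.003 and 3.96. All 3 Dgcr8 KO arrays were far above all 3 WT arrays on each of these clusters.

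Other multicopy gene families known from early embryos rose beside Zscan4. A cluster that names 9 predicted genes, Gm4340 and Gm20765 among them, was at 5.84, 5.97 and 6.05 in WT and 10.12, 10.21 and 9.98 in Dgcr8 KO, which is a difference of 4.15 (standard error 0.082, limma adjusted p = 1.39e-06). Clusters around Gm428, with 5 symbols each, had log2 ratios from 2.58 to 3.10, and clusters around the Prame-like gene Pramel31 had 2.08 to 2.53. In all, 22 clusters with several symbols were called with a log2 ratio beyond 2, all of them higher, and they make 22 of the 81 rises of that size. Not all of them are such families, since 7 name a miRNA together with another gene. The 22 clusters hold 19 distinct sets of values, because some repeat the same probes, and family members cannot be separated.

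Among single-symbol genes of the 2-cell embryo, 8 of 16 were called higher (50%, against 13.9% of all transcripts) and 1 lower. Their median log2 ratio was 0.40. Gm5662, a predicted gene, was at 3.40, 3.76 and 3.25 in WT and 7.23, 7.48 and 6.99 in Dgcr8 KO, which is a difference of 3.76 (standard error 0.164, limma adjusted p = 1.72e-05). Calcoco2, an autophagy receptor, rose from 7.74, 7.97 and 8.12 to 10.67, 10.71 and 10.61, and Tdpoz3, a speckle-type POZ domain gene, had a log2 ratio of 1.55. Usp26, an X-linked deubiquitinase, was the member called lower, at 6.67 on every WT array and 5.004, 5.06 and 4.81 on the Dgcr8 KO arrays (log2 ratio -1.71, adjusted p = 1.66e-05). Dppa3, which protects methylation marks in the zygote and is also a naive ES cell gene, fell on both of its clusters, with log2 ratios of -1.504 and -2.17.

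**Figure D2:**
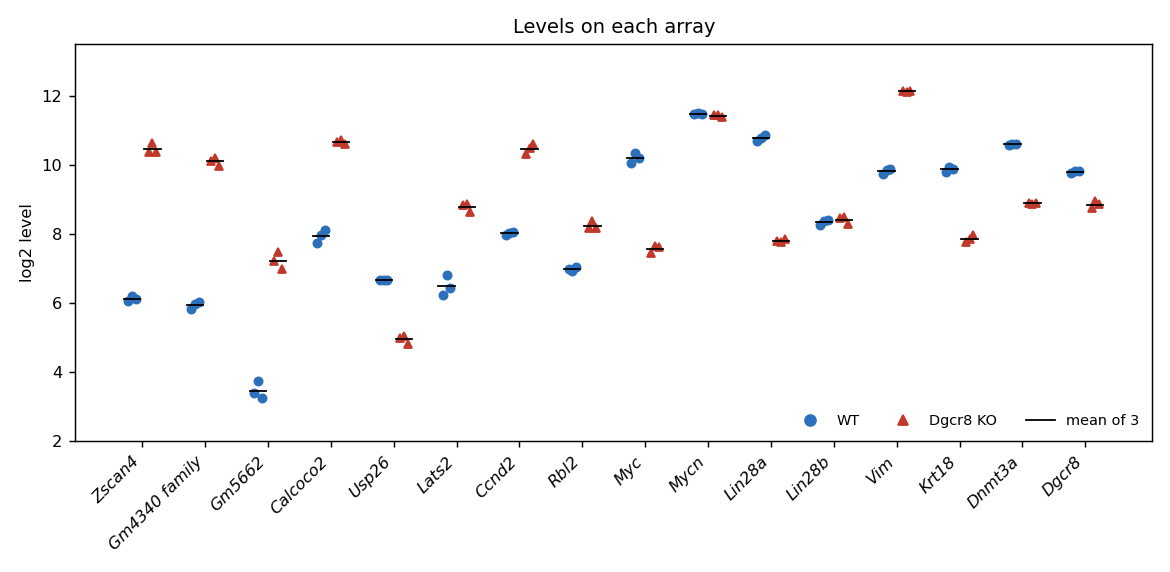
Log2 level on each array of WT (circles) and Dgcr8 KO (triangles) cells for 2 multi-gene clusters and 14 single genes, with black bars for the mean of 3 arrays. Levels may be compared between genotypes for 1 gene but not between genes. Mycn and Lin28b were not called, and the genotypes are separated for the rest.

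Several large changes lay outside the gene groups set up for this comparison. Prss35, a secreted serine protease-like protein, rose from 5.99, 5.81 and 6.31 to 9.21, 9.45 and 9.10, a 9.3-fold difference (log2 ratio 3.22, standard error 0.145, adjusted p = 1.93e-05). Smyd1, a histone methyltransferase of heart and skeletal muscle, was at 5.81, 5.89 and 5.95 in WT and 8.79, 8.85 and 8.86 in Dgcr8 KO. Ephx2, the soluble epoxide hydrolase, had a log2 ratio of 2.94, Fetub, a fetuin of the plasma, 2.77, and Sohlh2, a helix-loop-helix factor of early germ cells, 2.75. Dpysl3, a cytoskeletal protein of growing axons, rose from 7.45, 7.54 and 7.64 to 10.05, 10.07 and 10.04. These genes were picked among transcripts without overlap between genotypes, so their lack of overlap is not a result.

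Some falls of like size were of gene group members, among them the solute carriers named here, Slc40a1 in iron handling and Peg10 among trophoblast genes. Fndc3c1, an X-linked fibronectin domain gene, went from 7.46, 7.91 and 8.05 to 4.63, 4.76 and 5.04 (log2 ratio -3.00, limma adjusted p = 4.72e-05). Slc38a4, an imprinted amino acid transporter, was at 10.99, 11.14 and 11.15 in WT and 8.61, 8.68 and 8.68 in Dgcr8 KO. Slc40a1, the iron exporter ferroportin, fell by 2.36 on the log2 scale, Peg10, a retrotransposon-derived imprinted gene of the placenta, by 2.23, and Slc23a1, an ascorbate transporter, by 2.08. Tmem54 fell by 2.22.

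Most genes of the machinery that makes ribosomes were lower in Dgcr8 KO cells, by small amounts. Of 46 genes of ribosome assembly and RNA polymerase I, 35 were called lower and 1 higher, against 14.8% lower and 13.9% higher among all transcripts, and the median log2 ratio was -0.33. Rrp9, a protein of the U3 small nucleolar ribonucleoprotein, was at 10.70, 10.72 and 10.75 in WT and 10.04, 9.99 and 10.05 in Dgcr8 KO (log2 ratio -0.70, standard error 0.0486, adjusted p = 9.36e-05). Ddx21, a nucleolar RNA helicase, had a log2 ratio of -0.77. Nhp2, a protein of the complex that pseudouridylates ribosomal RNA, and Bop1, which acts in maturation of the large subunit, had log2 ratios of -0.67 and -0.64. Taf1b, a subunit of the factor that brings RNA polymerase I to its promoter, was the member called higher, at 0.49. The direction was the same when arrays were centred on their medians (35 lower, 1 higher) and after cyclic loess (30 lower, 2 higher), and 6 members fell by 1.5-fold or more.

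Of 77 proteins of the mitochondrial ribosome, 40 were called lower and 2 higher, with a median log2 ratio of -0.26. The share lower was 52.0%, against 14.8% of all transcripts and 29.1% of the 5750 brightest. Mrpl20 went from 9.22, 9.38 and 9.39 to 8.31, 8.23 and 8.34 (log2 ratio -1.04, adjusted p = 6.54e-05), Mrps21 had a log2 ratio of -0.97, Mrpl34 -0.96 and Mrpl11 -0.88. Of 60 proteins of the cytoplasmic ribosome, 16 were called lower and 3 higher, with a median of -0.10. The share of 26.7% lower compares with 14.8% of all transcripts and 29.1% of the 5750 brightest. Of the cytoplasmic proteins, 10 were lower after cyclic loess and 3 by SAM. The count for the cytoplasmic ribosome also depended on single arrays, with 8 lower without Dgcr8 KO replicate 1, 7 without Dgcr8 KO replicate 3, 8 without WT replicate 2 and 7 without WT replicate 3. In that list the largest fall was that of the paralog Rps27l at -0.86 and the largest rise that of the paralog Rpl39l at 0.96. Of the common subunits Rplp0 was at 13.40, 13.37 and 13.40 in WT and 13.11, 13.06 and 13.15 in Dgcr8 KO, a difference called by limma and not by SAM.

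Of 34 aminoacyl-tRNA synthetases, which load amino acids onto tRNAs, 13 were called lower and 0 higher, with a median log2 ratio of -0.16 and the 2 largest falls in the mitochondrial enzymes Hars2 (-0.73) and Rars2 (-0.71). By SAM 8 were lower. Of 39 proteasome subunits, 18 were called lower and 2 higher, with Psmd7, a subunit of the lid, at -0.58, and the members called higher were Psma8, the subunit of the testis proteasome, at 0.59 and Psmb8, the interferon-induced subunit, at 0.28. By SAM 7 proteasome subunits were lower and Psmb8 was not called. The limma shares lower were 38.2% of the synthetases and 46.2% of the proteasome subunits. They compare with 14.8% of all transcripts and 29.1% of the 5750 brightest. Of 27 genes of serine, threonine and one-carbon metabolism, 15 were called lower (55.6%, against the same 14.8% and 29.1%) and 4 higher. Gldc, the glycine decarboxylase that is a mark of naive ES cells, was at 11.01, 11.06 and 11.13 in WT and 9.84, 9.91 and 9.92 in Dgcr8 KO, and Shmt1, which makes glycine from serine, had a log2 ratio of -0.99. Mtr, the methionine synthase, and Cth, which makes cysteine, rose by 1.03 and 0.89.

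**Figure D3:**
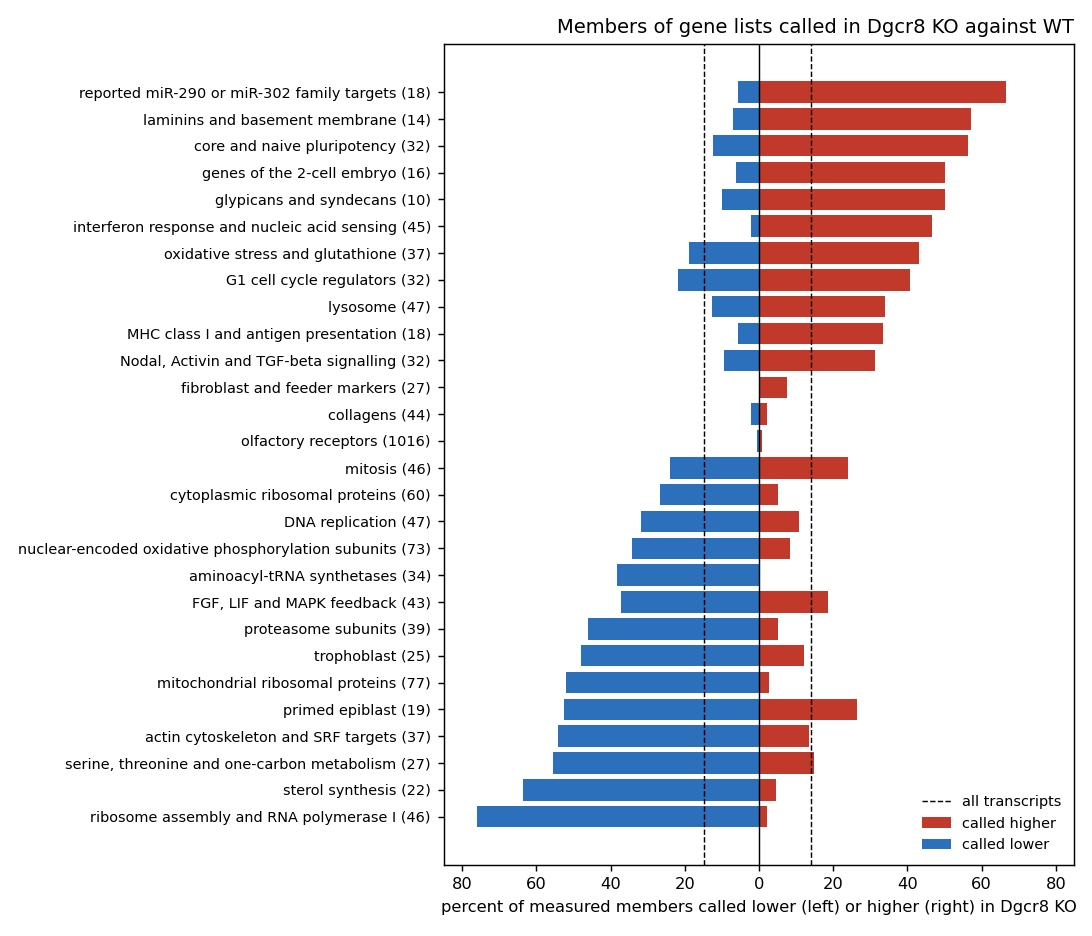
Share in percent of 28 gene lists' measured genes that limma called higher (red, right) or lower (blue, left) in Dgcr8 KO cells, with the number of genes measured in parentheses and dashed lines at the shares among all transcripts. Genes of ribosome assembly reach 76.1% lower, and reported targets of the miR-290 family 66.7% higher.

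Most genes listed for sterol synthesis had lower transcript levels. Of 22 measured genes, regulators such as Insig1 and Scap among them, 14 were called lower (63.6%, against 14.8% of all transcripts) and 1 higher. The median log2 ratio was -0.31. By SAM 10 were lower, and 4 fell by 1.5-fold or more. Idi1, which isomerises isopentenyl diphosphate, was at 9.75, 9.87 and 9.89 in WT and 9.09, 9.16 and 9.01 in Dgcr8 KO, Dhcr7, which catalyses the last step to cholesterol, had a log2 ratio of -0.72, and Msmo1, a sterol demethylase, -0.61. The exception was Ebp, the sterol isomerase, which rose from 7.23, 7.74 and 7.71 to 9.19, 9.26 and 9.27 (log2 ratio 1.68, standard error 0.135, adjusted p = 0.000166). Of 31 genes of fatty acid and lipid metabolism, 7 were called higher and 8 lower. The rises included Cpt1a, which admits fatty acids to mitochondria, at 1.23, and the carnitine carrier Slc25a20, which was counted with the solute carriers, had 1.56. Acsl4, which activates arachidonic acid, fell by 1.35. Carbon metabolism at the citric acid cycle was mixed, with 7 of 29 genes called higher (24.1%) and 6 lower (20.7%). The shares were 20.9% and 29.1% among the 5750 brightest transcripts. The NADP-linked enzymes Me1 and Idh2 stood out at 1.54 and 1.45. Idh2 was at 9.36, 9.42 and 9.49 in WT and at 10.86, 10.88 and 10.88 in Dgcr8 KO.

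Of 37 glutathione and detoxification genes, 16 were called higher (43.2%) and 7 lower (18.9%). The shares were 13.9% and 14.8% among all transcripts, and 20.9% and 29.1% among the 5750 brightest. Gss, the glutathione synthetase, rose from 7.69, 7.73 and 7.83 to 9.07, 9.15 and 9.15 (log2 ratio 1.37, adjusted p = 1.71e-05), Gstm1, a glutathione transferase, by 1.07 and Nqo1, a quinone reductase, by 0.99. Hmox1, the inducible haem oxygenase, went the other way, from 9.69, 9.89 and 9.87 to 8.80, 8.89 and 8.88. Of 24 genes of iron handling, 9 were called lower (37.5%, against 14.8% of all transcripts), 2 higher and 13 in neither direction. The largest fall in that list was that of Slc40a1 at -2.36. Steap2, a metalloreductase, was at -1.10 and Fth1, the ferritin heavy chain, at -0.65. Tfrc, the transferrin receptor, rose by 0.31.

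Several Dusp genes were lower in Dgcr8 KO cells. FGF, acting through the kinases Mek and Erk, moves ES cells out of the naive state, and the Dusp phosphatases that it induces switch Erk off again. Of 43 genes of FGF, LIF and MAPK feedback, 16 were called lower (37.2%, against 14.8% of all transcripts). A further 8 were called higher and 19 were not called, and the median log2 ratio was -0.09. Dusp4 went from 8.03, 8.36 and 8.27 to 6.38, 6.55 and 6.61 (log2 ratio -1.71, standard error 0.102, adjusted p = 5.36e-05). Dusp6 went from 10.03, 10.12 and 10.08 to 8.69, 8.96 and 8.90, Dusp9 had a log2 ratio of -1.38, and the ligand Fgf17 -0.88. The called rises included the LIF receptor chain Il6st (0.94) and the kinase Jak1 (0.99), which transmit the LIF signal that holds ES cells undifferentiated. Bmp4, a ligand that acts beside LIF, was at 8.66, 8.98 and 8.93 in WT and 6.67, 6.64 and 6.66 in Dgcr8 KO, and Id2, a target of BMP signals, had a log2 ratio of 0.96 and so moved the opposite way.

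Of 19 measured genes of the later, primed epiblast, 10 were called lower (52.6%) and 5 higher (26.3%). Of 32 genes of core and naive pluripotency, 18 were called higher (56.25%) and 4 lower (12.5%). Among all transcripts, 13.9% were called higher and 14.8% lower. Pim2, a kinase, was at 9.65, 9.64 and 9.77 in WT and 7.90, 8.06 and 7.93 in Dgcr8 KO, while Zic2 was at 8.23, 8.21 and 8.34 and at 9.39, 9.31 and 9.17. The de novo DNA methyltransferases fell together. Dnmt3a was at 10.57, 10.62 and 10.61 in WT and 8.89, 8.88 and 8.89 in Dgcr8 KO (log2 ratio -1.71, standard error 0.0467, adjusted p = 3.68e-06), Dnmt3b at 11.06, 11.20 and 11.16 and at 9.88, 9.88 and 9.71, and their partner Dnmt3l had a log2 ratio of -0.85. Zbtb38, a zinc finger protein that binds methylated DNA, rose by 1.73. In the Polycomb group, which silences developmental genes through histone marks, Bmi1 rose from 7.09, 7.35 and 7.30 to 8.72, 9.03 and 8.96 and Aebp2, an accessory subunit of complex 2, by 1.07, while Cbx7, the main chromobox protein of ES cells, fell by 0.46.

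Cell cycle regulators of G1 moved in both directions, and those that restrain entry to S phase were among the rises. Of 32 measured, 13 were called higher (40.6%, against 13.9% of all transcripts) and 7 lower (21.9%, against 14.8%). The median level of the list was 8.635. Among the 5749 transcripts with mean levels from 6.91 to 8.67, 23.2% were called higher and 21.7% lower. The share of G1 regulators called lower was thus near that of transcripts of like level, and the share called higher was above it. Ccnd2, the cyclin D2 that mouse ES cells express little of, rose from 7.99, 8.02 and 8.07 to 10.31, 10.48 and 10.61 (log2 ratio 2.45, standard error 0.0828, adjusted p = 7.35e-06). Rbl2, a retinoblastoma-like protein and reported target of the miR-290 family, went from 6.995, 6.93 and 7.04 to 8.17, 8.37 and 8.17, and Lats2, a kinase of the Hippo pathway and another such target, from 6.25, 6.81 and 6.43 to 8.84, 8.86 and 8.64. Cdkn1a, which encodes the inhibitor p21, is measured on a cluster that it shares with 4930567H12Rik, at 7.55, 7.504 and 7.55 in WT and 8.68, 8.80 and 8.77 in Dgcr8 KO (log2 ratio 1.22, adjusted p = 1.77e-05). E2f8, a repressive E2F factor, fell by 1.07. Myc fell from 10.06, 10.34 and 10.20 to 7.46, 7.64 and 7.63, whereas Mycn was at 11.46, 11.49 and 11.47 and at 11.45, 11.45 and 11.39 and was not called (log2 ratio -0.04, adjusted p = 0.623). Of 46 genes of mitosis 11 were called higher and 11 lower, 23.9% each way. Of 47 genes of DNA replication 15 were lower (31.9%) and 5 higher, and 0 of the falls reached 1.5-fold. Both lists are bright, and among the 5750 brightest transcripts 20.9% were called higher and 29.1% lower, so the share of replication genes lower was near that.

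**Figure D4:**
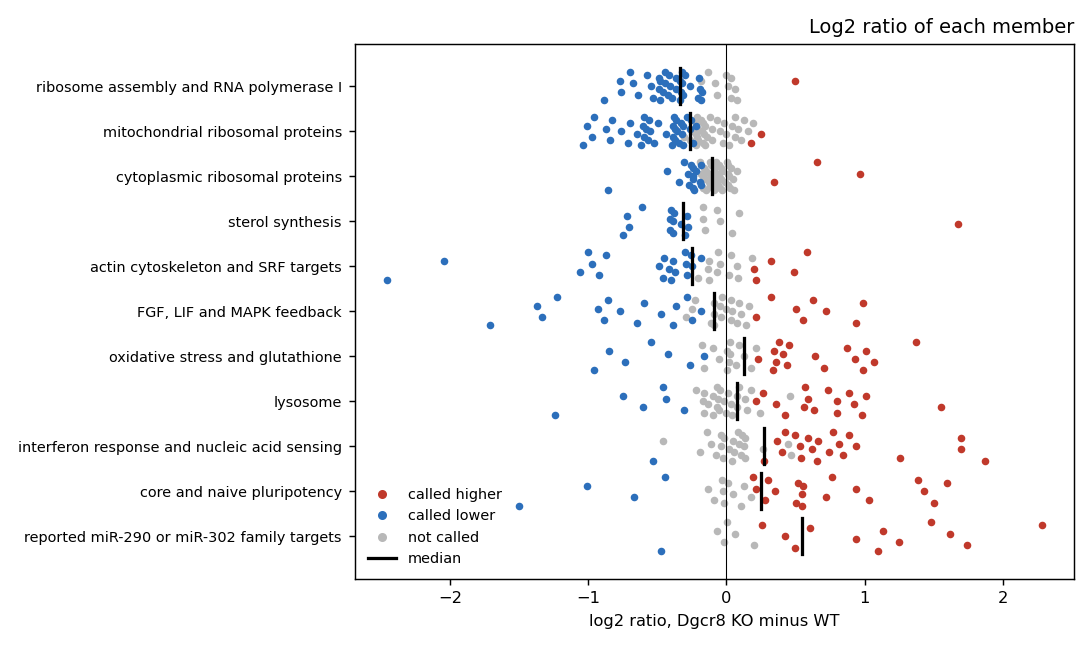
Log2 ratio of Dgcr8 KO to WT (horizontal) of each measured member of 11 gene lists, coloured by limma's call, with a black bar at the median of the list. Members of ribosome assembly crowd to the left of 0, and in sterol synthesis Ebp stands alone at 1.68. Other lists hold several members called each way, such as FGF, LIF and MAPK feedback with 8 higher and 16 lower.

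Some genes whose proteins carry out miRNA silencing were higher in Dgcr8 KO cells. Ago1, an Argonaute, rose from 8.91, 9.002 and 9.03 to 10.16, 10.29 and 10.20 (log2 ratio 1.24, standard error 0.0604, adjusted p = 2.57e-05). Tnrc6b, a scaffold that links Argonaute to deadenylases, rose by 0.92, and Mov10, a helicase found with Argonaute, went from 10.27, 10.42 and 10.38 to 11.79, 11.79 and 11.84. Of 31 genes of miRNA processing and silencing 8 were called higher (25.8%) and 6 lower (19.4%), so the list as a whole was mixed. Most of the list is bright, and among the 5750 brightest transcripts 20.9% were called higher and 29.1% lower. Of 18 reported targets of the miR-290 or miR-302 family, 12 were called higher (66.7%, against 13.9% of all transcripts) and 1 lower. Their median log2 ratio was 0.55. The targets that others reported came in part from Dgcr8 KO ES cells, so that list is not independent of this genotype. Reported let-7 targets more often went the other way, 9 of 16 called lower (56.25%, against 14.8% of all transcripts) and 3 higher. Lin28a went from 10.69, 10.77 and 10.88 to 7.80, 7.76 and 7.86, and its paralog Lin28b was at 8.27, 8.39 and 8.41 and at 8.47, 8.49 and 8.29. The let-7 targets called higher included Ccnd2, at a log2 ratio of 2.45, and Hmga2, at 0.28.

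Some clusters name a miRNA together with another gene, and where their probes lie was not tested. The cluster of Mir27b, whose sequence is shown above, lies in Aopep, an aminopeptidase gene, and was at 6.01, 6.22 and 6.04 in WT and 8.88, 9.04 and 8.91 in Dgcr8 KO (log2 ratio 2.85, adjusted p = 3.68e-06). The clusters of its neighbours Mir23b and Mir24-1 had log2 ratios of 3.04 and 3.02, and the own cluster of Aopep 0.39 (adjusted p = 0.00877). The cluster that names Mir92-1 and Mir17hg rose from 8.48, 8.61 and 8.63 to 11.20, 11.23 and 11.17, a log2 ratio of 2.63, and the own cluster of Mir17hg had 0.80. Of 33 clusters that name a miRNA and another gene, 11 were called higher and 3 lower, against 13.9% and 14.8% of all transcripts. The 3 lower ones all name Mir682 and the ribosomal protein gene Rpl37a, with log2 ratios of -0.18, -0.19 and -0.20, and the own cluster of Rpl37a had -0.19.

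Genes of cell shape and adhesion included some of the largest changes. Vim, the intermediate filament vimentin, rose from 9.73, 9.86 and 9.89 to 12.13, 12.12 and 12.15, a 4.95-fold difference (log2 ratio 2.31, standard error 0.06, adjusted p = 3.5e-06), and the transcription factor Zeb1, a repressor of epithelial genes, by 1.33. Some epithelial genes fell, with Krt18 going from 9.79, 9.93 and 9.88 to 7.77, 7.86 and 7.98, the claudin Cldn6 from 10.46, 10.47 and 10.59 to 7.54, 7.73 and 7.82, the tight junction protein Cgn by 1.08 and the splicing factor Esrp1, which acts in epithelial cells, by 0.87. Of 32 claudins and tight junction genes, 7 were called lower (21.9%) and 2 higher, the junctional adhesion molecules Jam2 (1.43) and Jam3 (0.77). Of 52 keratins and related genes 4 were called lower (7.7%) and 3 higher (5.8%). Over 28 genes of the switch between epithelial and mesenchymal states, though, 8 were called higher (28.6%) and 10 lower (35.7%), and Krt17 rose by 1.69. Of 37 genes of the actin cytoskeleton and targets of the factor SRF, 20 were called lower and 5 higher, with the smooth muscle protein Tagln going from 9.03, 9.22 and 9.39 to 7.13, 7.15 and 7.21.

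The basement membrane, the sheet of matrix under epithelia, was higher in most of its parts. Of 14 genes, 8 were called higher (57.1%, against 13.9% of all transcripts) and 1 lower, with a median log2 ratio of 0.33. Nid1, the linker nidogen, rose from 8.60, 8.74 and 8.75 to 10.51, 10.61 and 10.60 (log2 ratio 1.88, adjusted p = 7.01e-06), Lamb2 by 0.89 and Lamc1 by 0.67, while Lamb1, the beta chain of the main embryonic laminin, went from 10.14, 10.20 and 10.31 to 9.21, 9.20 and 9.24. Among integrins, the receptors of that matrix, Itgav rose by 1.71 and Itga3 fell by 1.20. The heparan sulphate carriers Gpc4 and Sdc2 rose by 1.40 and 1.01, and of 10 glypicans and syndecans 5 were called higher and 1 lower. By contrast 1 of 44 collagens was called higher and 1 lower.

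Of 45 interferon response genes, 21 were called higher (46.7%, against 13.9% of all transcripts), 1 lower and 23 in neither direction, with a median log2 ratio of 0.27. Irf9, which takes the interferon signal to DNA, was at 7.24, 7.36 and 7.40 in WT and 8.54, 8.62 and 8.62 in Dgcr8 KO (log2 ratio 1.26, adjusted p = 2.69e-05). Ifitm1, a membrane protein that is also an early germ cell marker, went from 11.86, 11.89 and 11.75 to 12.66, 12.67 and 12.71, and Parp9, an ADP-ribosyltransferase-like partner of Dtx3l, rose by 0.77. Bst2, which tethers viruses at the membrane, was the member called lower, at -0.53. Of 18 genes of antigen presentation, 6 were called higher and 1 lower, the peptide transporter Tap1 at -0.28. The peptide trimming enzyme Erap1 rose from 5.75, 6.04 and 6.10 to 7.85, 7.90 and 7.81, and the loading protein Tapbp by 1.65.

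**Figure D5:**
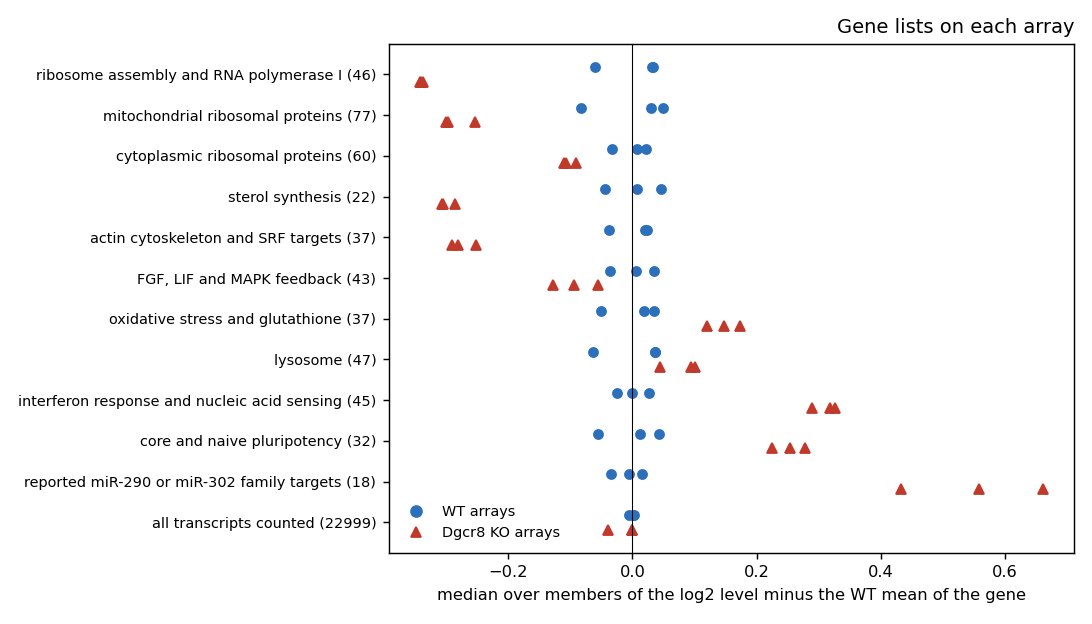
Median over the members of a gene list of the log2 level minus the WT mean of the same gene, on each WT array (circles) and each Dgcr8 KO array (triangles), with the number of members in parentheses. Over genes of ribosome assembly the Dgcr8 KO arrays lie at -0.34 each, over interferon response genes at 0.29 to 0.33, and over all transcripts between -0.04 and 0.00.

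The promoters of these groups were searched for letters of known factor sites. The windows run from 250 bases before to 50 bases after each RefSeq start in GRCm38.p6, and a gene counts when any of its windows holds the motif on either strand. GAAA followed after any 2 bases by GAAA again, the core of the element bound by Irf9 and its partners, was in 15 of 35 interferon response genes with a window (42.9%), against 3.89% of all 15614 genes with a window, 4.31% of those called higher and 3.00% of those called lower. Windows with the motif in capitals are shown for members that were called higher (Oas1a, Eif2ak2 and Rsad2, at log2 ratios of 0.89, 0.66 and 0.53) and for Bst2, called lower, and all lie on the minus strand.
Oas1a, chr5:120907516-120907565: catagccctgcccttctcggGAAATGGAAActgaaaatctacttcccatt
Eif2ak2, chr17:78882525-78882574: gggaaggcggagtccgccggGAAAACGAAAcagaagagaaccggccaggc
Rsad2, chr12:26456543-26456592: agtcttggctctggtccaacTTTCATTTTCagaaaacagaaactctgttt
Bst2, chr8:71537573-71537622: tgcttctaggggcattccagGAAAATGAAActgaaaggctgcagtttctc
The motif was thus in promoters of members that rose and of the member that fell. CACGTG, the E-box that Myc and related factors bind, was in 9.49% of the 15614 genes, 11.3% of those called higher, 13.7% of those called lower and 8.22% of those not called. It was in 9 of 41 genes of ribosome assembly (22.0%), and windows of 3 that were called lower are shown, Nop2 (log2 ratio -0.48) and Imp4 (-0.41) on the plus strand and Ltv1 (-0.39) on the minus strand.
Nop2, chr6:125131803-125131848: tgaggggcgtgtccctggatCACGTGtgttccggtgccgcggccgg
Imp4, chr1:34439688-34439733: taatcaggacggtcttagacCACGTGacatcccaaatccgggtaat
Ltv1, chr10:13193088-13193129: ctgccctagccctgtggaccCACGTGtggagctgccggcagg
Other groups held the E-box as often or more often, 15 of 30 germline genes (50%) and 15 of 41 lysosome genes (36.6%), and these had 10 members called higher with 9 lower, and 16 higher with 6 lower. The genes shown were chosen after the match and their values were known.

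Genes of restricted tissues were mostly not called, at low levels on all arrays. Of 1016 olfactory receptors 8 were called higher and 5 lower, of 163 vomeronasal receptors 0 in either direction, and of 37 Hox genes 2 higher and 0 lower, Hoxd8 at 0.44 and Hoxd4 at 0.42. The count for olfactory receptors became 40 higher and 5 lower without WT replicate 1 and Dgcr8 KO replicate 2, and Hoxd8 was then not called. Some neural genes rose from low levels, Meis2 from 5.92, 5.88 and 6.03 to 8.07, 8.21 and 7.998 and Ncam1 from 6.85, 6.91 and 6.80 to 8.93, 8.87 and 8.84, while Gap43, a growth cone protein, fell by 1.52. Over 24 neural genes 7 were called higher (29.2%) and 4 lower (16.7%), against 13.9% and 14.8% of all transcripts.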

How the data were processed

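RNA of 3 WT and 3 Dgcr8 KO ES cell cultures was measured on 1-colour arrays. The log2 values were normalized by the authors before they were deposited, by RMA per the methods and by GCRMA per the processing notes, with no version given, and were used as deposited. No counts exist, so 3 arrays per genotype limit the precision. Symbols come from the platform annotation, updated through RefSeq, and 12147 clusters without a symbol were left out. limma 3.58.1 in R 4.3.3 (lmFit, eBayes) was fitted to the 6 arrays, and p-values were adjusted over 22999 transcripts. In a gene list, a gene with several clusters counts by its brightest one. The members and lists were chosen with earlier results of these data known, and the lists of aminoacyl-tRNA synthetases and histones were corrected after their members' values were seen.

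Genes were named by a rule: the 15 largest rises and 15 largest falls among called transcripts with 1 symbol and no overlap of arrays, passing over predicted genes; per list, the 4 called genes of smallest adjusted p and up to 2 of those called against the list's majority; and genes that the study names or that mark the cell type. Some genes under that rule are not described, among them Msln (log2 ratio 3.70), the largest of the 15 rises, and Pla2g7 (3.48). Every gene named outside that rule was chosen after its values were seen. Tested on simulated data over 22999 transcripts, limma found 49.3% of 67 transcripts shifted by a log2 value of 0.5, 98.5% of 67 at a shift of 1, and 100% of 66 at a shift of 2, and it made 10 wrong calls. The simulation shifted 200 transcripts and drew noise independently for each. In the real data 28.8% were called and part of the spread was shared between transcripts, so these rates need not hold there. In all, 21 alternatives were run, among them SAM, the test that the study named. It was written anew from its published description, and the study's own software was not run. The constant that it adds to each standard error was 0.741, above every standard error printed here. Its calls therefore follow the size of a change more than those of limma do.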

Additional observations from a re-analysis of the deposited data

Results flagged for a closer look

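Clusters that hold only miRNA genes were outside the comparison. Over all rows of the table, 107 of these 326 clusters were called higher in Dgcr8 KO than in WT and 2 lower by limma, with a median log2 ratio of 0.14, which puts a signal above that of the WT arrays in rows not counted in the report. Among 12147 clusters without a symbol, 441 were higher and 698 lower in the same fit. Over all 35557 rows that fit called 3298 higher and 3484 lower.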

How the results depend on the processing

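No named gene that limma had called changed direction under the 20 alternatives run for named genes. Named genes that were not called were not checked for direction. SAM and the stricter thresholds kept the same log2 ratios, so they could not change a direction. In all, 214 of 304 named genes besides Dgcr8 had the same call under each alternative that held them. Without the dimmest 25% of transcripts, 299 named clusters were left. Leaving out 1 array at a time gave 2606 to 3170 transcripts higher and 2500 to 3713 lower, and for Dgcr8 log2 ratios from -0.998 to -0.888. The numbers of the arrays did not pair them (correlations of deviations 0.27, 0.385 and -0.241), and a fit with the replicate block called 3140 higher and 3287 lower. SAM called 2611 and 2353. At adjusted p under 0.01, 2102 transcripts were lower, and members called were 6 for p53 targets (higher), 14 for oxidative phosphorylation, 6 for cytoplasmic ribosomal proteins and 10 for the proteasome (lower). By SAM the lower members were 14 for oxidative phosphorylation, 3 for cytoplasmic ribosomal proteins, 8 for aminoacyl-tRNA synthetases, 7 for the proteasome and 6 for splicing factors. Array weights gave 23 lower for DNA replication. For cytoplasmic ribosomal proteins, cyclic loess gave 10 lower, a robust intensity trend 28, and leaving out arrays 7 to 20. After cyclic loess the median of oxidative phosphorylation was 0.00, against -0.07.

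A demand of 1.5-fold gave 1267 transcripts higher and 814 lower. Members higher were then 8 for pluripotency, 3 for p53 targets, 4 for Nodal and TGF-beta, 10 for the lysosome and 8 for oxidative stress. Members lower were 0 for DNA replication and for the proteasome, 7 for imprinted genes, 10 for FGF, LIF and MAPK feedback, 4 for glycolysis and for sterol synthesis, 3 for oxidative phosphorylation, 7 for one-carbon metabolism, 1 for cytoplasmic and 15 for mitochondrial ribosomal proteins, 6 for ribosome assembly, 2 for aminoacyl-tRNA synthetases and for splicing factors, and 7 for actin and SRF targets. Signal over background was not given per array, dim transcripts were seldom called, and 3 arrays of 1 line per genotype limit every comparison. The cause of these changes was not tested.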

Other observations

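The transcripts above the median of the mean level differed in balance between chromosomes. Over all 11026 such transcripts placed on a chromosome, 22.8% were called higher and 25.4% lower, with a median log2 ratio of -0.02. On chromosome 8, 17.9% of 593 such transcripts were called higher and 33.9% lower, with a median log2 ratio of -0.08, and on chromosome 9, 28.4% of 659 were called higher and 20.2% lower, with a median of 0.01. The medians of the other chromosomes lay between these values, and the copy number of the chromosomes was not measured.

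Genes of meiosis and of the germline moved both ways. Hormad1, a protein of the meiotic chromosome axis, was at 7.46, 7.59 and 7.88 in WT and 9.20, 9.29 and 9.10 in Dgcr8 KO, and Rec114 and the cohesin Smc1b had log2 ratios of 1.34 and 1.26. Tex15, a testis gene, went from 6.50, 7.27 and 6.998 to 5.14, 5.32 and 5.19. Of 36 such genes 10 were called higher (27.8%) and 9 lower (25%), against 13.9% and 14.8% of all transcripts. Notch receptors also went opposite ways, with Notch3 going from 8.55, 8.46 and 8.48 to 7.10, 7.11 and 7.22 and Notch1 from 8.48, 8.58 and 8.59 to 9.40, 9.39 and 9.44, and the target Hes1 rose by 0.84.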
